A study of Mus musculus with 12 samples.

Results

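The 10 genes described here encode subunits of voltage-gated calcium channels. They are the auxiliary genes Cacna2d1, Cacna2d2 and Cacna2d3, the pore genes Cacna1a, Cacna1b, Cacna1c and Cacna1h, and the β genes Cacnb1, Cacnb3 and Cacnb4. Members were found by gene symbol in the count files, and all 10 were among the 23238 symbols counted in each library. Each of the 10 also passed the filter on low counts, which left 15036 genes for testing. Messenger RNA was measured in dorsal root ganglia, which hold the cell bodies of sensory neurons, taken from lumbar levels 3 to 5 of C57BL/6 mice at postnatal week 8. Females and males had either a nerve injury, labelled SNI, or a sham operation, which made 4 groups of 3 libraries. The labels name no other genotype, allele or agent. The sources used here do not give the time between operation and dissection, the kind of nerve injury or whether animals were pooled. Nothing in the labels ties a replicate to an animal of its own, and p-values then reflect only the spread among libraries, which could be technical. The tissue was the whole ganglion, so fewer cells of a type and less RNA per cell cannot be told apart in any value below.

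Voltage-gated calcium channels open when a neuron is depolarised and let calcium in, which triggers transmitter release at terminals and shapes firing and gene expression in the cell body. An α1 protein forms the pore and sets the channel type, a β protein binds its inner face and helps bring it to the membrane, and an α2δ protein, held on the outer face, raises the number of channels at the surface. The α2δ proteins made from Cacna2d1 and Cacna2d2 bind the gabapentinoid drugs gabapentin and pregabalin, which are given for neuropathic pain, and the binding to the Cacna2d1 product is the one on which their pain relief is known to depend. In rodents Cacna2d1 is known for rising in sensory ganglia after damage to a peripheral nerve.

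The stretch of the α2δ genes shown first is the part on which drug binding turns. In Cacna2d1 a run of arginines that lies just before the metal-ion site of the protein is known to be needed for gabapentin binding. The 87 bases that hold both were read from GENCODE vM21 transcripts (build GRCm38, also called mm10), with the 3 codons of the arginine stretch in capitals.
Cacna2d1: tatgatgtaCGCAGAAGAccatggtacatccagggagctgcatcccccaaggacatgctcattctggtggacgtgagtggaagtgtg
Cacna2d2: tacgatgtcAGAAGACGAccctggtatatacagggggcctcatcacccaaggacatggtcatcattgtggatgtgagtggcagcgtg
Cacna2d3: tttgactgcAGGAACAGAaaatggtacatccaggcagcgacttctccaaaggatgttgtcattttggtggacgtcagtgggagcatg
All 3 codons in capitals encode arginine in Cacna2d1 (codons 239 to 241, counted from the start codon) and in Cacna2d2 (codons 280 to 282). In Cacna2d3 the codons in capitals, 242 to 244, encode arginine, asparagine and arginine, and its product is not among the known targets of gabapentin. Cacna2d1 and Cacna2d2 shared 68 of the 87 bases and 26 of 29 encoded residues here, while Cacna2d3 shared 20 of 29 residues with either. The stretch is coding sequence on the forward strand in exons 8, 9 and 10 of Cacna2d1 (chr5:16264305-16264327, chr5:16266687-16266737 and chr5:16267376-16267388). In Cacna2d2 it lies on the forward strand in exons 8, 9 and 10 (chr9:107512338-107512360, chr9:107513054-107513104 and chr9:107513233-107513245). In Cacna2d3 it lies on the reverse strand in exons 7 and 8 (chr14:29347122-29347144 and chr14:29346968-29347031).

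Facts of the whole data set that touch these genes are few. Total counts ran from 12476606 to 15520746 per library, and values are given as CPM, which are counts scaled to the library totals after TMM correction. The kit reads the 3′ ends of transcripts, so CPM was not divided by length. Atf3, a factor induced in neurons by axon damage, was at 275 to 361 CPM in the 6 SNI libraries and at 43.6 to 56.7 CPM in the 6 sham libraries, which matched every label. Male SNI replicate 2 and Female sham replicate 2 stood apart on the first principal component, with scores of 99.9 and 47.5 where the next highest score was 0.963. The neuron list of 10 genes, which checks the tissue, summed to between 12119 and 16025 CPM in the 12 libraries, with none of its genes at 0. Male SNI replicate 2 had the highest sums of the neuron, satellite glia and macrophage lists, at 16025, 8122 and 361 CPM. Male SNI replicate 1 held 1517 CPM of 8 skeletal muscle genes, where the other libraries held 6.54 to 73.5 CPM. Some of the results below are given also without Male SNI replicate 2, left out alone or together with Male SNI replicate 1.

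After injury, averaged over the sexes, Cacna2d1 rose and Cacnb4 fell, and the other 8 genes did not pass the test. So 1 of 10 rose and 1 of 10 fell, where 6.52% of all tested genes were called, 3.78% as higher and 2.73% as lower. Calls rest on edgeR's quasi-likelihood test with Benjamini-Hochberg adjustment over all 15036 genes and an adjusted p below 0.05. The median log2 change of the 10 genes was -0.18, and 7 of the 10 changes were below 0; over all tested genes the median was 0.00307 and 49.5% were below 0. Adjusted p of the 8 uncalled genes ran from 0.121 to 0.723.

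**Figure D1:**
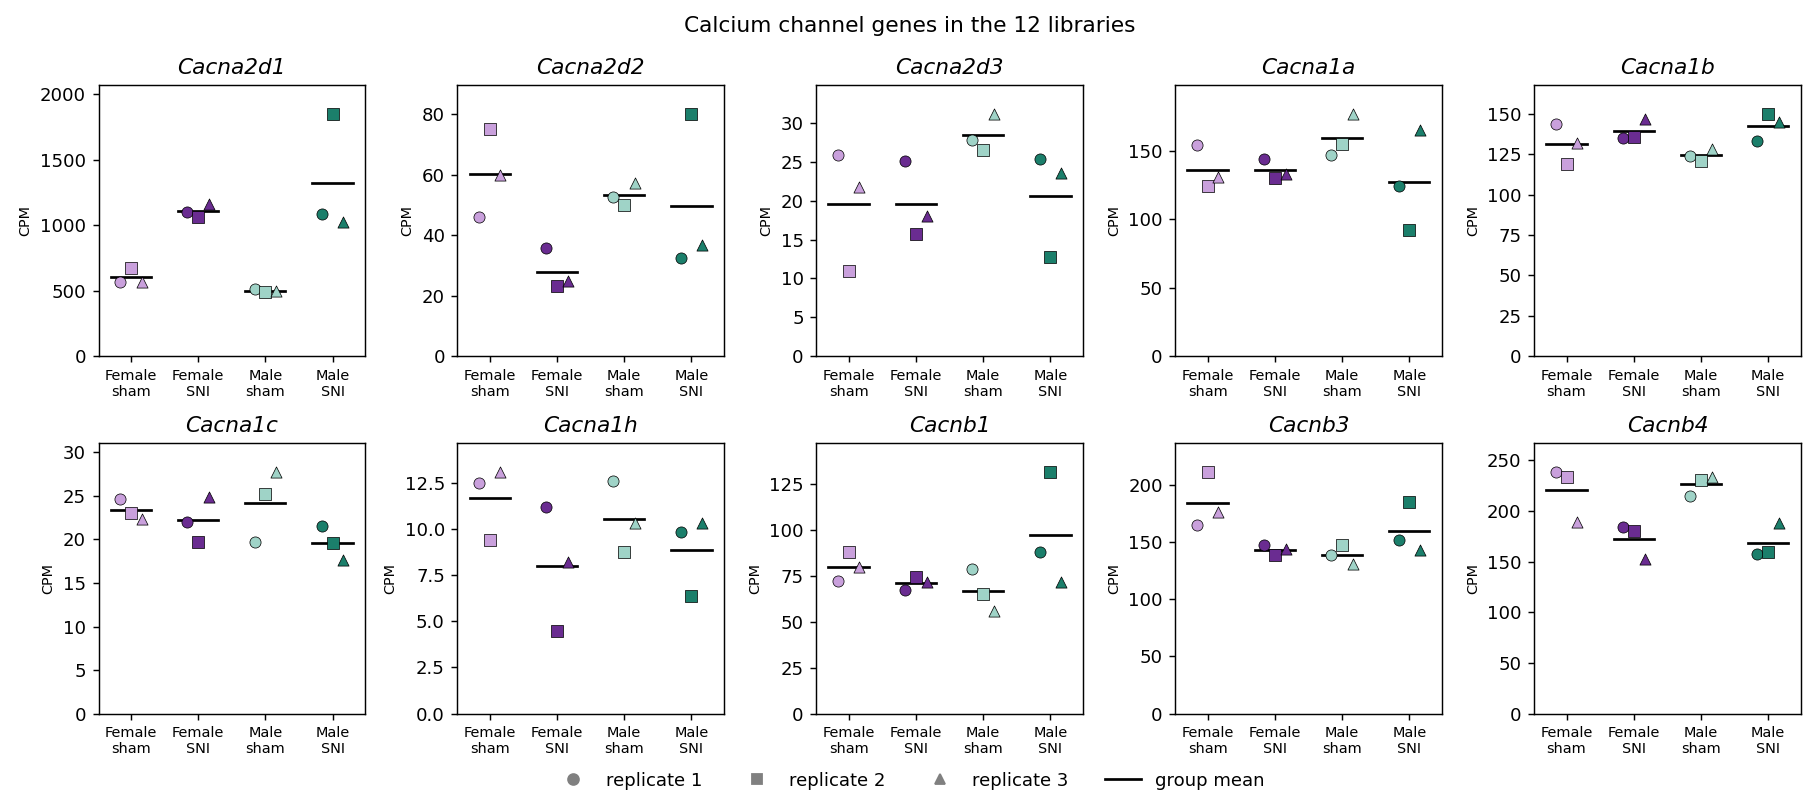
Level of each of the 10 calcium channel genes in the 12 libraries, in CPM on linear axes that start at 0, with 1 symbol per replicate and a black line at the group mean. The SNI libraries of Cacna2d1 lie at 1026 to 1851 CPM, all above the sham libraries, and those of Cacnb4 at 153 to 188 CPM, all below theirs.

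Cacna2d1 (chr5:15934691-16374511, forward strand), the gabapentinoid target, was at 567, 674 and 569 CPM in the female sham libraries and at 1101, 1062 and 1163 CPM in the female SNI libraries. In males it was at 510, 491 and 496 CPM in sham and at 1082, 1851 and 1026 CPM after SNI. No SNI library overlapped a sham library in either sex, and the lowest SNI value, 1026 CPM, stood well above the highest sham value, 674 CPM. Such a separation of 6 from 6 libraries with SNI higher was found for 2.79% of all tested genes.

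The group means of Cacna2d1 were 604 ± 61.4 CPM in sham females and 1109 ± 51 CPM in female SNI libraries (SD, n = 3 each). In males they were 499 ± 10.2 CPM and 1320 ± 461 CPM, and the wide SD of the male SNI group came from replicate 2 at 1851 CPM. Averaged over the sexes, Cacna2d1 rose 2.20-fold, by 1.14 on the log2 scale (SE 0.13, 95% confidence interval 0.86 to 1.42, adjusted p = 0.000108). The rise was called when any 1 of the 12 libraries was left out, with values from 0.983 to 1.21. Without Male SNI replicate 2 it was 0.983 (SE 0.07, adjusted p = 3.02e-08). Without Male SNI replicates 1 and 2, which left 1 male SNI library, it was 0.964.

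Cacna2d2 (chr9:107399612-107529343, forward strand), whose product also binds gabapentinoids, was at 45.9, 75.1 and 59.9 CPM in female sham libraries and at 35.8, 23.0 and 24.9 CPM after SNI. In males it was at 52.5, 49.8 and 57.3 CPM in sham and at 32.4, 80.1 and 36.8 CPM after SNI. In females every SNI library was lower than every sham library, a pattern that 13.4% of all tested genes showed. In males replicates 1 and 3 after SNI lay below all 3 sham libraries while replicate 2 lay above them, so the male groups overlapped.

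The averaged change of Cacna2d2 was -0.61 on the log2 scale (SE 0.21, 95% confidence interval -1.06 to -0.15) and did not pass the test (adjusted p = 0.121). This call rested on 1 library. Cacna2d2 was lower by 0.817 without Male SNI replicates 1 and 2. Without Male SNI replicate 2 alone it fell by 0.862 (SE 0.14, adjusted p = 0.000508). Many genes gained a call in the same way, since leaving out Male SNI replicate 2 raised the number called among all genes from 980 to 1766.

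Cacna2d3 (chr14:28904943-29721864, reverse strand) encodes the α2δ protein without the full arginine stretch. It ran from 11 to 31.2 CPM in sham libraries (median 26.2) and from 12.8 to 25.4 CPM after SNI (median 20.9), so the groups overlapped, although in males the SNI libraries, at 25.4, 12.8 and 23.6 CPM, all lay below the sham libraries, at 27.8, 26.5 and 31.2 CPM, as for 8.83% of all tested genes. Its averaged log2 change of -0.23 was about the size of its SE of 0.22 (adjusted p = 0.66).

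Within the α2δ family the share of Cacna2d1 was larger in every SNI library than in any sham library. Cacna2d1 held 84.9% to 88.8% of the family's counts in the sham libraries and 94.4% to 96.5% after SNI. A share per kilobase, with counts divided by the length of each gene's longest GENCODE transcript, is given beside the share of counts throughout, because counts from 3′ ends need not grow with transcript length and neither scale is a sure measure of level between genes. Per kilobase the share of Cacna2d1 was 78.5% to 85.1% in sham and 91.6% to 94.5% after SNI. The share of Cacna2d2 was 7.18% to 9.88% of counts in sham and 2.06% to 4.12% after SNI, and per kilobase it was 8.66% to 12.1% and 2.59% to 5.18%, without overlap on either scale. Male SNI replicate 2, which was high in CPM for both genes, had a Cacna2d1 share of 95.2% of counts, inside the range of the other SNI libraries. Cacna2d3 had 1.44% to 5.34% of counts in sham and 0.66% to 2.23% after SNI, and 2.79% to 9.93% and 1.3% to 4.35% per kilobase, which overlapped. Cacna2d4, the remaining family member, had at most 0.0675% of the family's counts in any library. Summed over the family, the level was 567 to 761 CPM in sham and 1087 to 1944 CPM after SNI, and most of both sums was Cacna2d1. Since the shares in a library sum to a fixed whole, a larger share of Cacna2d1 and smaller shares of the others are 1 observation, and no test was made of them.

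**Figure D2:**
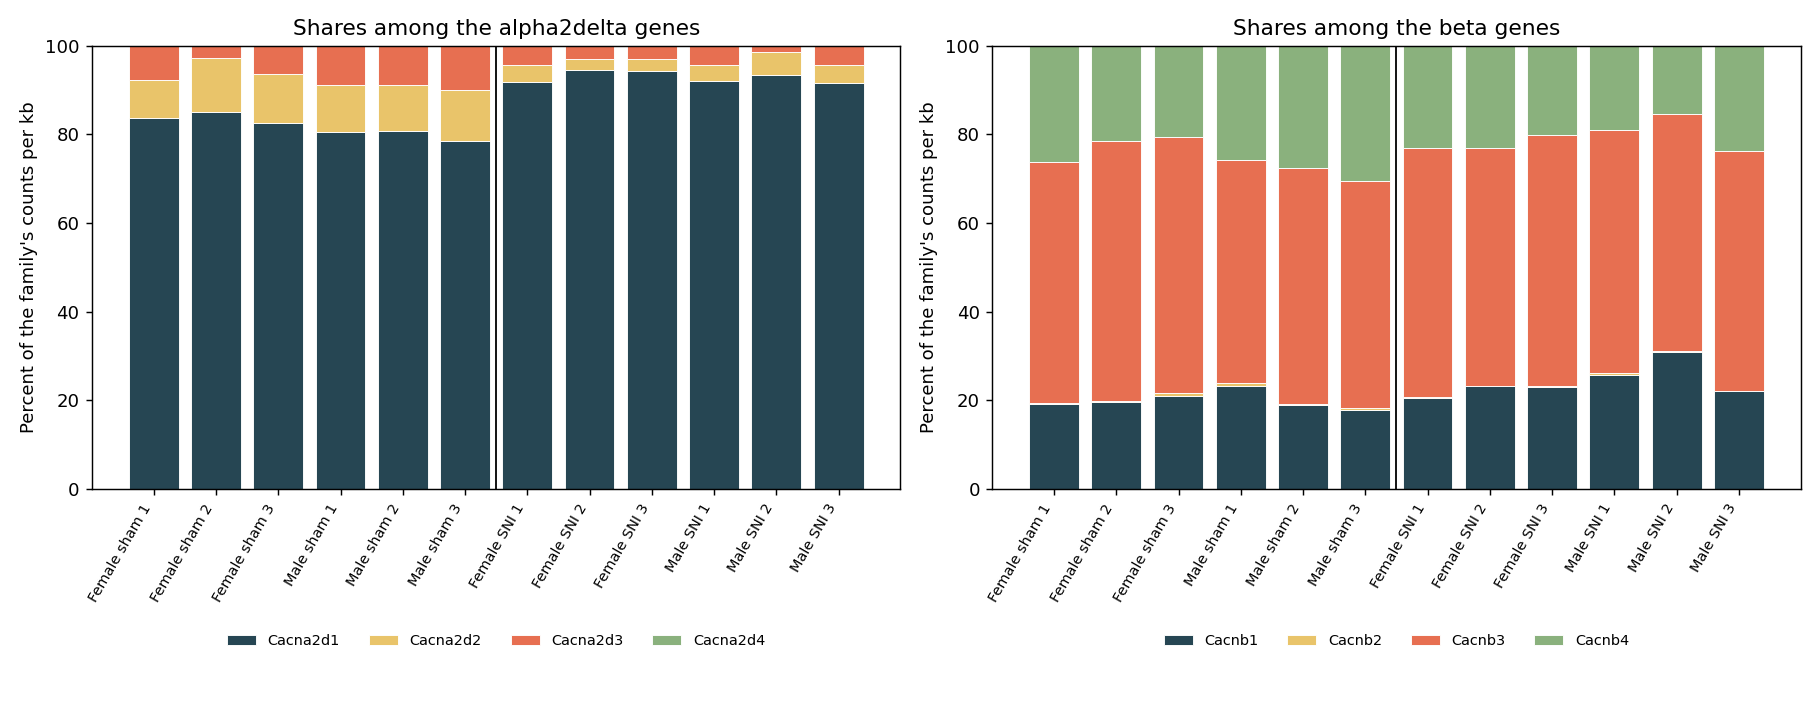
Share of each gene within the α2δ family (left) and the β family (right), in percent of the family's counts per kilobase of transcript, with 1 bar per library, the 6 sham libraries left of the black line and the 6 SNI libraries right of it. Cacna2d1 fills 78.5% to 85.1% of the sham bars and 91.6% to 94.5% of the SNI bars, while the shares of Cacnb3 overlap between sham and SNI.

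Of the pore genes, none of the 4 passed the test in any comparison of SNI with sham. For 3 of them the sequence shown is the stretch between the first and second domains of the protein where the β subunit docks, since the β genes are the other set described here. Capitals mark the codons of the fixed residues in the known docking motif, glutamine, glutamine, glutamate, leucine, glycine, tyrosine, tryptophan, isoleucine and glutamate.
Cacna1a: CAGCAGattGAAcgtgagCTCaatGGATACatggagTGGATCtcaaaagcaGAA
Cacna1b: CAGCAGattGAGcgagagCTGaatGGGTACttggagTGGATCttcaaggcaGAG
Cacna1c: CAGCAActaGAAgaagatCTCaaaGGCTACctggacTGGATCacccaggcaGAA
The motif was found in all 3, 5 and 22 long coding transcripts of Cacna1a, Cacna1b and Cacna1c and in 0 of 3 of Cacna1h, whose T-type channel is known to work without a β subunit. Cacna1a and Cacna1b shared 16 of the 18 residues, and Cacna1c shared 10 with Cacna1a and 11 with Cacna1b. The stretch is coding sequence on the forward strand in exons 8 and 9 of Cacna1a (chr8:84536125-84536176 and chr8:84536402-84536403). On the reverse strand it lies in exons 8 and 9 of Cacna1b (chr2:24719941-24719992 and chr2:24719100-24719101) and in exon 9 of Cacna1c (chr6:118734906-118734959).

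Cacna1a (chr8:84388440-84640246, forward strand) forms the P/Q-type channel of synaptic terminals. It was at 124 to 177 CPM in sham libraries (median 151) and at 92.1 to 165 CPM after SNI (median 132), with the lowest value in Male SNI replicate 2. The groups overlapped, and the averaged change was -0.17 on the log2 scale (SE 0.12, adjusted p = 0.543). Cacna1b (chr2:24603887-24763152, reverse strand) forms the N-type channel, which carries much of the calcium entry for transmitter release from nociceptor terminals and is the target of ziconotide. It was at 144, 119 and 132 CPM in sham females and at 135, 136 and 147 CPM in female SNI libraries. In males Cacna1b was at 124, 121 and 128 CPM in sham and at 133, 150 and 145 CPM after SNI. The male SNI libraries all lay above the male sham libraries, as did 9.09% of all tested genes, and the female groups overlapped. The averaged change of Cacna1b was 0.14 (SE 0.08) and did not pass the test (adjusted p = 0.391), with a 95% confidence interval of -0.03 to 0.31.

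Cacna1c (chr6:118587240-119196418, reverse strand), the pore of an L-type channel that links activity to gene expression, was low in every library. It ran from 19.7 to 27.8 CPM in sham (median 23.9) and from 17.6 to 24.9 CPM after SNI (median 20.6). The groups overlapped, and the averaged change was -0.19 (SE 0.12, adjusted p = 0.472). Shares were taken of 8 α1 genes, without Cacna1f and Cacna1s and with the counts listed for Cacna1h, which are discussed below. Of their counts, Cacna1a had 41.1% to 48.1% in sham and 31.1% to 46.2% after SNI, and Cacna1b had 34.9% to 41.3% and 40.5% to 50.5%. Per kilobase, Cacna1a had 46.7% to 54.1% and 36.3% to 51.8%, and Cacna1b had 31.9% to 38.2% and 36.9% to 48.1%. The sham and SNI ranges overlapped for both genes on both scales. The summed level of these 8 α1 genes was 299 to 367 CPM in sham and 296 to 357 CPM after SNI.

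Cacna1h (chr17:25374285-25433783, reverse strand) encodes the T-type pore known from low-threshold mechanoreceptors and from pain models. It was listed at 8.73 to 13.1 CPM in sham libraries (median 11.4) and at 4.49 to 11.2 CPM after SNI (median 9.03), with an averaged change of -0.40 (SE 0.22, adjusted p = 0.382). These values cannot be assigned to Cacna1h. Its 3′ end overlaps by 158 bases the 3′ end of Tpsg1, a tryptase gene on the other strand, and a 3′-end kit reads just that part. Cacna1h and Tpsg1 had the same count in Female sham replicate 2, 124 each, and in Male SNI replicate 2, 83 each. In the other 10 libraries Cacna1h was 2 to 16 counts higher, so that the Tpsg1 count was 83.3% to 100% of the Cacna1h count in the 12 libraries. The averaged change listed for Tpsg1 was -0.42 (SE 0.24, adjusted p = 0.4). The counts do not show which gene the shared reads came from, and the sources used here do not say how strand was used in counting.

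**Figure D3:**
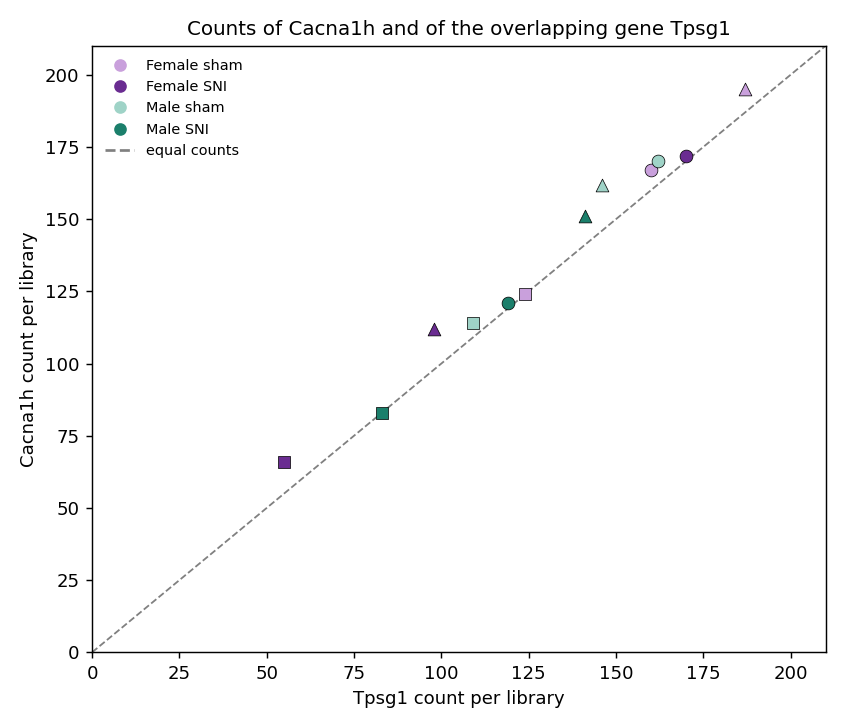
Raw count of Cacna1h (vertical axis) against the raw count of Tpsg1 (horizontal axis), with 1 point per library, coloured by group and shaped by replicate (circle 1, square 2, triangle 3), and a dashed line of equal counts. All 12 points lie on the line or at most 16 counts above it.

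Of the β genes, Cacnb4 fell and the other 2 did not pass the test. Cacnb4 (chr2:52428320-52676831, reverse strand) encodes a neuronal β subunit that pairs mainly with P/Q-type and N-type pores. It was at 239, 234 and 189 CPM in sham females and at 184, 180 and 153 CPM in female SNI libraries. In males it was at 215, 231 and 234 CPM in sham and at 158, 160 and 188 CPM after SNI. The SNI libraries lay below the sham libraries throughout, but the gap was narrow, 188 CPM in Male SNI replicate 3 against 189 CPM in Female sham replicate 3. A separation of 6 from 6 with SNI lower was found for 2.04% of all tested genes.

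Averaged over the sexes, Cacnb4 fell to 0.762 of the sham level, a log2 change of -0.39 with an SE of 0.09 and a 95% confidence interval of -0.59 to -0.20 (adjusted p = 0.0179). The fall kept its direction in every fit that left out 1 library, but lost its call without Female SNI replicate 3 (adjusted p = 0.0696), without Female sham replicate 1 (adjusted p = 0.0578) or without Male sham replicate 3 (adjusted p = 0.0567). Without Male SNI replicates 1 and 2 the change was -0.308. The exons of Cacnb4 overlap those of A430018G15Rik, on the other strand, over 1433 bases at its 3′ end, so the value is uncertain as well. The symbol of that gene was not among those counted, so its level is not known.

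Cacnb1 (chr11:98001508-98023034, reverse strand), known first as the β subunit of the skeletal muscle channel and also made in neurons, was at 72.4, 87.9 and 79.9 CPM in sham females and at 67.2, 74.4 and 71.9 CPM after SNI. In males it was at 78.8, 65.0 and 56.2 CPM in sham and at 88.2, 132 and 72.0 CPM after SNI. The groups overlapped in both sexes, and the highest values of the males were those of SNI replicates 2 and 1. The averaged change was 0.19 (SE 0.14, adjusted p = 0.537) and became 0.0529 without Male SNI replicate 2 and -0.0231 without Male SNI replicates 1 and 2. Male SNI replicate 1 is the library with skeletal muscle transcripts, whose part in its Cacnb1 value was not tested.

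Cacnb3 (chr15:98630840-98644529, forward strand), a β subunit found with N-type pores in sensory neurons, was at 165, 212 and 177 CPM in sham females and at 148, 139 and 144 CPM after SNI. In males it was at 139, 148 and 131 CPM in sham and at 152, 185 and 143 CPM after SNI. The female SNI libraries all lay below the female sham libraries, as for 13.4% of all tested genes, whereas the male groups overlapped. The averaged change was -0.08 (SE 0.09, adjusted p = 0.723). Within the β family Cacnb3 held 30.9% to 39.6% of counts in sham and 35.2% to 38.9% after SNI, and Cacnb4 held 42% to 55.2% and 33.4% to 46.6%. Per kilobase, Cacnb3 held 50.4% to 58.6% and 53.6% to 56.9%, and Cacnb4 held 20.5% to 30.4% and 15.4% to 23.7%. Which of the 2 genes is the more abundant in sham ganglia thus depends on the scale, since Cacnb4 leads by counts and Cacnb3 per kilobase. Exons of Cacna2d2, Cacna1a and Cacnb1 also overlap genes on the other strand, by 82, 435 and 80 bases, which leaves their values less certain than those of the 5 genes that share no exon, Cacnb3 among them.

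**Figure D4:**
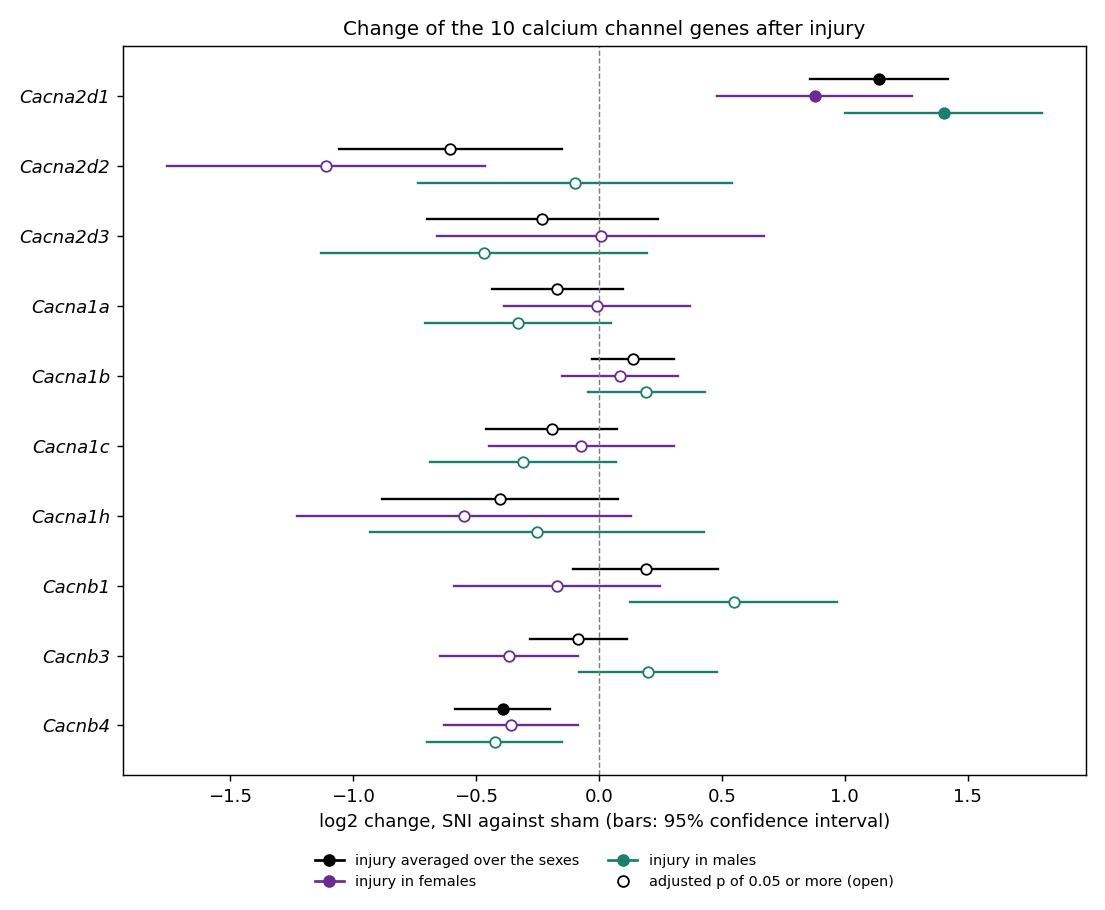
Log2 change of the 10 genes from sham to SNI averaged over the sexes (black), in females (purple) and in males (green), with bars for the 95% confidence interval, filled points for an adjusted p below 0.05 and open points otherwise. Cacna2d1 is filled in all 3 comparisons and Cacnb4 only in the average.

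Taken within each sex, Cacna2d1 was the one gene of the 10 that passed the test. In females it rose, by a log2 change of 0.88 (SE 0.18, adjusted p = 0.0193), where 2.89% of all tested genes were called, 1.6% as higher and 1.29% as lower. In males it rose by 1.40 (SE 0.19, adjusted p = 0.000884), where 2.13% were called, 1.65% as higher and 0.486% as lower. The female call held in 7 of the 12 fits that left out 1 library. It was lost without Female SNI replicate 1, 2 or 3 (adjusted p = 0.0759, 0.0668 and 0.0845) and without Female sham replicate 1 or 3 (adjusted p = 0.0785 and 0.103), with values between 0.826 and 0.964 throughout. The male call held in all 12, from 1.08 without Male SNI replicate 2 to 1.55 without Male SNI replicate 3.

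The female change of Cacna2d2, -1.11 (SE 0.30), missed the threshold with an adjusted p of 0.0705. It passed without Male SNI replicate 2, at -1.10 (adjusted p = 0.00117), a library that enters the female contrast only through the shared estimate of the spread, and in a fit of the female libraries alone, at -1.11 (adjusted p = 0.00708). The male change was -0.10 (SE 0.30, adjusted p = 0.918) and -0.62 (adjusted p = 0.145) without Male SNI replicate 2. The log2 change of Cacnb4 was -0.36 (SE 0.13, adjusted p = 0.179) in females and -0.43 (SE 0.13, adjusted p = 0.121) in males, so its call came from both sexes together. Cacnb3 differed by -0.37 (SE 0.13, adjusted p = 0.178) in females and by 0.20 (SE 0.13, adjusted p = 0.528) in males, and without Male SNI replicate 2 the female value was -0.359 and passed (adjusted p = 0.0445). Cacnb1 differed by -0.17 (SE 0.20, adjusted p = 0.755) in females and by 0.55 (SE 0.20, adjusted p = 0.202) in males. The male value of Cacnb1 was 0.268 without replicate 2 and 0.726, past the threshold (adjusted p = 0.043), without replicate 3.

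Whether the change differed between the sexes was tested directly, as the male minus the female change. None of the 10 genes passed, and neither did any other gene (0% called), although 3 of the 10 and 1100 of all genes had an unadjusted p below 0.05. The 3 were Cacnb3 (0.57, SE 0.18), Cacnb1 (0.72, SE 0.28) and Cacna2d2 (1.01, SE 0.42), each with an adjusted p of 0.647. Without Male SNI replicate 2 these differences were 0.442, 0.430 and 0.483. The difference for Cacna2d1 was 0.53 (SE 0.26, adjusted p = 0.647) with a 95% confidence interval of -0.03 to 1.08, and 0.196 without that library. DESeq2 also called 0 genes for this difference. None of the 10 genes passed the test of males against females in sham libraries (0.0399% of all genes called, adjusted p of the 10 from 0.938 to 0.972) or after SNI (0.0399% called, adjusted p from 0.881 to 0.973). At an unadjusted p below 0.05 there was 1 of the 10 in sham, beside 688 of all 15036 genes. It was Cacnb3, with a male minus female difference of -0.41 (SE 0.13). After SNI there were 2, beside 654 of all genes, and they were Cacna2d2 (0.83, SE 0.30) and Cacnb1 (0.45, SE 0.20). Without Male SNI replicate 2 these were 0.308 and 0.169, and without Male SNI replicates 1 and 2 they were 0.397 and 0.0176. Without Male SNI replicate 2, and without Female SNI replicate 2 or 3, none of the 10 genes had an unadjusted p below 0.05 after SNI.

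Macrophage markers rose alongside Cacna2d1. Their summed level was 88 to 141 CPM in sham and 188 to 361 CPM in SNI libraries, and 6 of the 7 genes were called as higher. Among all tested genes 3.78% were called as higher and 2.73% as lower. The neuron list summed to 12577 to 15517 CPM in sham and 12119 to 16025 CPM after SNI, the satellite glia list to 4079 to 5721 and 4873 to 8122 CPM, and the Schwann cell list to 3827 to 5963 and 4104 to 5696 CPM, all of which overlapped. Such sums are set by the most abundant genes of a list, and single genes were called within them: of 10 neuron genes Elavl3 rose (0.32, adjusted p = 0.0249) and Rbfox3 (-0.35, adjusted p = 0.0273) and Isl1 (-0.32, adjusted p = 0.0281) fell, and of 6 satellite glia genes Glul rose (0.55, adjusted p = 0.000326). No gene of these 4 lists was at 0 in all libraries. The part of any cell type in the changes of the channel genes was not tested.

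The genes whose CPM followed Cacna2d1 most closely over the 12 libraries, by Pearson's r among 10858 genes with a mean of at least 5 CPM, were Tuba1c, Chl1, Slc1a4, Gap43 and Tnik. Tuba1c, an α-tubulin gene, had r = 0.993, Chl1, a cell adhesion gene, 0.987, Slc1a4, an amino acid transporter gene, 0.986, Gap43, a growth cone protein gene, 0.986, and Tnik, a kinase gene, 0.985. Spearman's rho was 0.93 to 0.958. Each of the 5 also rose after SNI in the averaged comparison, by 1.56, 1.48, 1, 1.28 and 0.84 on the log2 scale in that order. Gap43 was at 520 to 875 CPM in sham and at 1306 to 2346 CPM after SNI, with its highest value in Male SNI replicate 2, as for Cacna2d1. Without the 2 libraries that stood apart r was 0.984 to 0.991. The points share the injury groups and the libraries, and r of the deviations from the group means was 0.897 to 0.953, so these values are a description. The 5 genes were picked for following Cacna2d1, whose SNI libraries all lay above its sham libraries. Their rises, and the highest Gap43 value in Male SNI replicate 2, are thus no separate evidence.

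Of 16 other calcium channel subunit genes, 9 had enough counts to be tested, and 0 rose and 1 fell. Of all tested genes 3.78% were called as higher and 2.73% as lower. The median change of the 9 was -0.15 against 0.00307 over all tested genes. The adjusted p of the 8 uncalled genes ran from 0.316 to 0.977. The gene that fell was Cacng2, which encodes stargazin, an auxiliary subunit better known for carrying AMPA receptors. It was at 25.5, 30.0 and 29.7 CPM in female sham, at 21.4, 24.3 and 19.8 CPM in female SNI, at 32.3, 27.9 and 36.4 CPM in male sham and at 23.3, 12.5 and 20.5 CPM in male SNI libraries. Every SNI value lay below every sham value, as for 2.04% of all tested genes, and Cacng2 fell, with a log2 change of -0.58 (SE 0.15, adjusted p = 0.0348). Its call held in 5 of 12 fits that left out 1 library, where adjusted p ranged from 0.0158 to 0.102 and the change from -0.671 to -0.463. Cacng5, the most abundant of these genes, did not pass (-0.11, SE 0.11, adjusted p = 0.686).

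Of 27 genes for channel partners and ligands, 26 were tested, and 1 rose and 1 fell. Of all tested genes 3.78% were called as higher and 2.73% as lower, so the list held about the share of calls found among all genes. Its median was -0.14 against 0.00307 over all tested genes, with an adjusted p of up to 0.98 for the uncalled genes. The thrombospondin genes Thbs1, Thbs2, Thbs3 and Thbs4, singled out after their values were seen because their products are known ligands of α2δ, had log2 changes of 0.03, 0.38, -0.35 and -0.30 and did not pass. Stac, whose adaptor protein binds L-type channels and raises their number at the surface, was at 91, 85.4 and 85.9 CPM in sham females and at 154, 131 and 138 CPM after SNI. In males it was at 84.3, 78.7 and 79.8 CPM in sham and at 136, 160 and 126 CPM after SNI. The groups were far apart, and Stac rose by 0.74 averaged over the sexes (SE 0.09, adjusted p = 0.000107), with a call in females, in males and in all 12 fits that left out 1 library. Rims2, an active-zone protein gene whose product ties calcium channels to vesicles, fell by 0.36 (SE 0.09, adjusted p = 0.02), from 68.9 to 77.8 CPM in sham to 51.7 to 67.0 CPM after SNI, and kept its call in 6 of 12 such fits.

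Of 34 calcium handling genes, all tested, 1 rose and 6 fell, where 3.78% and 2.73% of all tested genes were called as higher and lower. The median was -0.11, against 0.00307 over all tested genes, with an adjusted p of 0.0511 to 0.988 for the uncalled genes. The number called ranged from 4 to 11 when 1 library was left out. It was 11 without Male SNI replicate 2, where 1766 of all genes were called instead of 980. Itpr1, a gene for the channel that releases calcium from the endoplasmic reticulum, was at 6.96 to 13.8 CPM in sham and at 15.8 to 24.8 CPM after SNI and rose by 0.93 (SE 0.17, adjusted p = 0.00343). Of the 4 genes for plasma membrane calcium pumps 2 fell, Atp2b3 by 0.67 (SE 0.12, adjusted p = 0.00288), from 69.6 to 94.8 CPM in sham to 40.2 to 66.3 CPM after SNI, and Atp2b2 by 0.47 (SE 0.08, adjusted p = 0.00337), from 122 to 148 CPM to 87.8 to 105 CPM. The other pump genes did not pass, Atp2b1 at -0.10 (adjusted p = 0.512) and Atp2b4 at -0.08 (adjusted p = 0.775). Itpr1, Atp2b3 and Atp2b2 were called in all 12 fits that left out 1 library.

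The other 4 that fell act downstream of calcium. Of the 4 genes for subunits of the calcium-dependent kinase CaMKII 2 fell, with log2 changes of -0.59 for Camk2b (SE 0.13, adjusted p = 0.0156) and -0.43 for Camk2a (SE 0.10, adjusted p = 0.0218). Camk2d, at 0.22 (adjusted p = 0.202), and Camk2g, at -0.01 (adjusted p = 0.981), did not pass. Ppp3ca, the catalytic subunit gene of calcineurin and the most abundant gene of this list, fell by 0.37 (SE 0.08, adjusted p = 0.0152), from 1803 to 2090 CPM in sham to 1293 to 1700 CPM after SNI. Hpca, for the calcium sensor hippocalcin, fell by 0.43 (SE 0.11, adjusted p = 0.0331). Without 1 library Camk2b and Ppp3ca lost the call in 1 fit each (Female sham replicate 3 and Female SNI replicate 3), Camk2a in 7 and Hpca in 9. Camk2a and Hpca were called in females, at -0.66 and -0.72, and their male changes of -0.20 and -0.14 were not. No gene passed the test of a difference in change between the sexes.

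**Figure D5:**
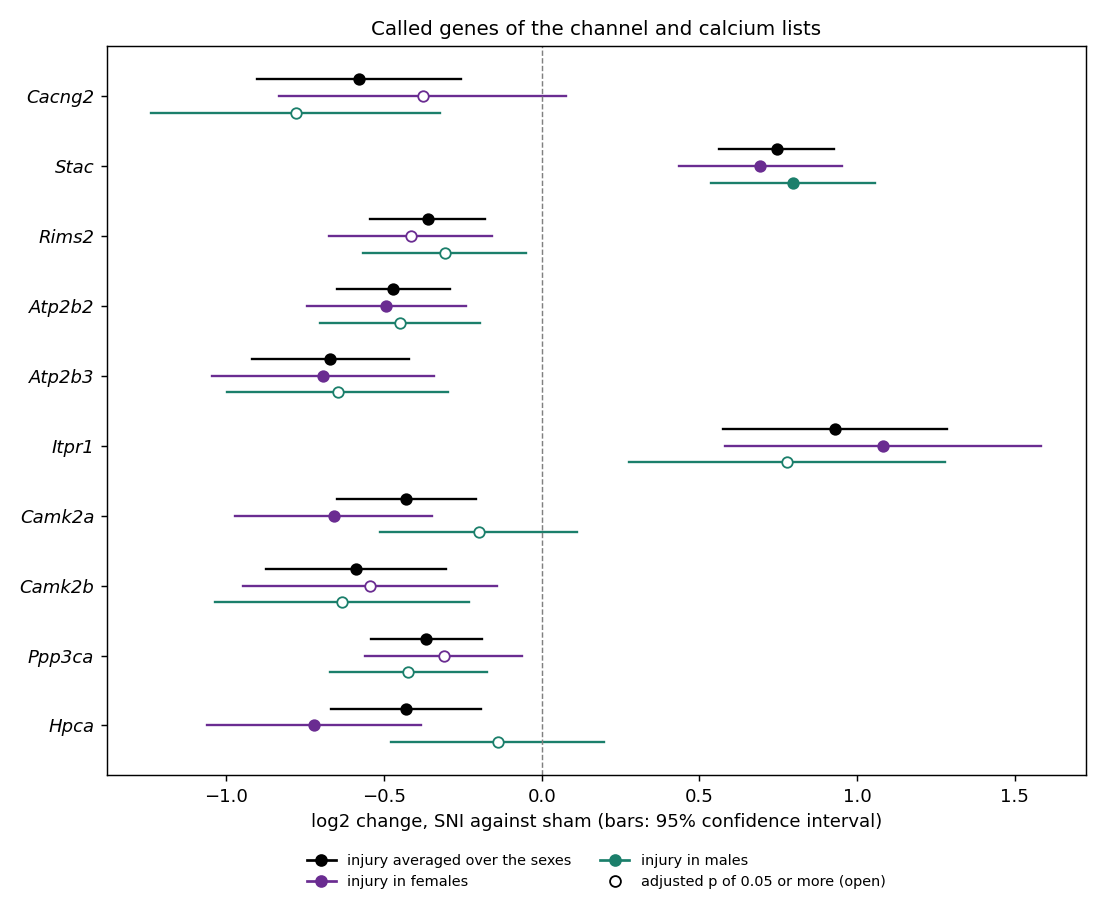
Log2 change from sham to SNI of the genes called in the average over the sexes from the other subunit, partner and calcium handling lists, drawn as for the channel genes, with bars for the 95% confidence interval and filled points for an adjusted p below 0.05. Stac and Itpr1 lie above 0 and the other 8 genes below it.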

How the data were processed

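Per the file headers, the authors deposited a table of raw counts by gene symbol for each library. Polyadenylated RNA was sequenced as single reads from 3′-end libraries, per the labels' protocols. The submitters' processing notes list the build mm10, Bowtie2 and bedtools without versions. The sources used here do not state how strand, duplicates and shared reads were treated. Each file held 23282 rows; 44 extra rows of repeated symbols were summed. Groups came from the labels. Genes were kept by filterByExpr (minimum count 10), and 1 model with a coefficient for each of the 4 groups was fitted to all 12 libraries with TMM factors (0.914 to 1.07) and edgeR 4.0.16 (limma 3.58.1, R 4.3.3). Two-sided quasi-likelihood tests of 6 contrasts had Benjamini-Hochberg adjustment over 15036 genes. Confidence intervals are 95% from the model. Within groups r of log2 CPM was 0.91 to 0.974, and no pair of replicates looked like 1 library deposited in duplicate. The procedure was tested on simulated data. The 10 genes and all lists were chosen with earlier results of these data known. Named besides the 10 are, from each of 3 lists, every gene called for injury averaged over the sexes and the most abundant tested gene, the 5 genes most like Cacna2d1, and Atf3. The most abundant gene of the partner list is not reported here. Tpsg1 was added after its counts were seen. Alternatives were RLE factors, DESeq2 1.42.0, limma voom with sample quality weights, no filter, no Rn45s, a replicate block, 1 sex alone, and libraries left out.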

Additional observations from a re-analysis of the deposited data

How the results depend on the processing

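The averaged change of Cacna2d1 kept its direction and its call under all alternatives run, between 0.964 and 1.21 on the log2 scale. Of the 10 genes 1 to 3 were called in the average without 1 library, where 626 to 1766 of all genes were. In females 1 of the 10 was called, where 435 of all genes were. The number was 2 with DESeq2 (777 of all genes), without the filter (417), without the 2 libraries apart (986) or from females alone (905). With voom weights it was 3, where 1724 of all genes were called. Without 1 library it was 0 to 3, where 155 to 1176 of all genes were called. Cacna2d1 ran from 0.826 to 0.964 there. In males 1 was called (321 of all genes), 2 with voom weights (901) and 1 to 2 without 1 library (137 to 601). Other subunit genes numbered 0 to 1 without 1 library. Partner genes numbered 4 with voom weights (2274 of all genes) and 1 to 3 without 1 library. Calcium handling genes numbered 11 with DESeq2, voom weights or without the 2 libraries apart, 12 without Male SNI replicates 1 and 2, and 4 to 11 without 1 library. Changes that crossed 0 were none of them called. The fit without Male SNI replicates 1 and 2 was a choice made after seeing the data. It left 1 library, replicate 3, in the male SNI group, so that group then had no replicates. In that fit Cacna1a became 0.0256 in the average and 0.0517 in males, and Cacnb1 became -0.0231. In females Cacna2d3 became -0.101 with voom weights, -0.273 without the 2 libraries apart and -0.278 to 0.258 without 1 library, and Cacna1a became 0.00528 with voom weights and -0.0729 to 0.0834 without 1 library. Without 1 library, Cacna1c in females was -0.164 to 0.000746 and Cacna2d2 in males -0.62 to 0.131. With the replicate block Cacna2d1 was 1.13, and 2 of the 10 genes and 9 handling genes were called, where 936 of all genes were. The block changed no call of the 10. Deviations of same-numbered libraries of a sex correlated at -0.0431 to 0.0824, so no pairing by number was seen over all tested genes. Effects on fewer genes and links across the sexes were not examined in this way. All-gene calls were 980, against 1385 with DESeq2 and 2274 with voom weights. The causes were not tested. Cacna1h, with 66 to 195 counts per library, was the most limited by depth.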

Other observations

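Cacna1s and Ryr1, channel genes of skeletal muscle, were highest in 1 library. Cacna1s, the pore of the muscle L-type channel, had 42 counts in Male SNI replicate 1 and 0 to 9 in the other 11 libraries. Ryr1, the muscle calcium release channel, was at 21.5 CPM there and at 0.899 to 4.30 CPM in the others. Acta1, muscle actin, was at 445 CPM there and at 1.95 to 15.4 CPM in the others. None of the 8 genes of the skeletal muscle list was called for injury averaged over the sexes by edgeR's quasi-likelihood test (adjusted p from 0.0733 to 0.271).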
